A study of Mus musculus with 18 samples.

Results

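The comparison described here set the 3 libraries of the NC line taken after 24 h of oxyhemoglobin against its 3 libraries taken after 12 h. It used these 6 of the series' 18 libraries, chosen by their labels alone, and was made across all genes with enough reads. BV2 cells, an immortalized mouse microglial line, came from 2 lines labelled NC and BAK1-KD, and each was sampled untreated (control), at 12 h and at 24 h of exposure to oxyhemoglobin (hemoglobin carrying oxygen) at a labelled dose of 10 mM. That dose is high for a protein, so its unit is uncertain, and what NC and KD stand for is not written out in the labels. No group was left untreated for 12 h or 24 h, so hours in culture go with hours of treatment and cannot be told apart from it. Nothing in the labels says that the 3 libraries of a group came from separate cultures, and p-values therefore measure only the spread between these libraries. All groups shared the serum-containing medium and the same labelled cell type. The question was which genes moved further after 12 h, which fell back, and which changed only late.

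Library totals were 4361313, 5006300 and 6008810 counts at 24 h and 4857848, 5113493 and 5546969 counts at 12 h, and between 21314 and 22503 genes had a count in each of these 6. A single noncoding gene model, CT010467.2, took 16.6 to 25.3% of the counts at 24 h and 13.1 to 17.2% at 12 h. With it left out, the test described below called 268 genes higher and 187 lower, against 261 and 180 with it. Of 14 microglia and macrophage markers none was at 0, and their summed level was 673 to 714 CPM at 24 h and 875 to 905 CPM at 12 h, groups that did not overlap. These sums are scaled to the full library total, CT010467.2 included. A sum follows its most abundant members. Of the 11 markers tested singly none was called, 7 estimates were lower and 4 higher, and their median change was -0.06 (log2). The part of that lower sum in the results below was not tested. Markers of erythroid cells, neurons, astrocytes, oligodendrocytes, fibroblasts with endothelium, and lymphocytes summed to no more than 9.59 CPM per type in any of the 6 libraries, and 6 of the 9 erythroid markers, the globin genes among them, were at 0. Bak1, the gene that the other line's label names, had too few reads to be tested. In bulk RNA, fewer cells making a transcript and less of it per cell cannot be told apart.

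Microglia are the resident macrophages of the brain, and blood products that reach brain tissue after a bleed activate them. In macrophages, activation switches on cytokine and chemokine genes through NF-kB and AP-1, and often a second wave of antiviral genes through type I interferon, which cells secrete and sense with a shared surface receptor. Free hemoglobin also brings heme, which macrophages break down with heme oxygenase, and a secretory cell under load raises the chaperones of its endoplasmic reticulum. Activated macrophages in culture commonly slow their division. These are textbook descriptions and not results of these libraries.

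Between 12 h and 24 h, 441 of the 15996 genes tested changed, which is 2.76% of them, with 261 higher at 24 h (1.63%) and 180 lower (1.13%). A gene was called changed at an adjusted p under 0.05 by the quasi-likelihood test of edgeR, with p adjusted after Benjamini and Hochberg over every gene tested. Changes are log2 fold changes of 24 h against 12 h ± SE, with 3 libraries per group, and levels are CPM, counts scaled to a common library size, which compare 1 gene across libraries but not 1 gene with another. Of the changed genes, 147 were at least 2-fold higher and 84 at least 2-fold lower at 24 h. In 437 of the 441 the libraries of the 2 groups did not overlap, against 17.0% of all genes tested. The median change over all genes tested was 0.00 (log2).

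These counts moved with the choice of model and of libraries. With the library number as a block, 1841 genes were called, 862 higher and 979 lower, and all 441 were among them with the same direction. Leaving out a single library took the count to 209 (12 h library 1), 195 (12 h library 3), 231 (24 h library 2) or 287 (24 h library 3). Higher genes then numbered 114, 108, 148 and 134 in the same order, and lower genes 95, 87, 83 and 153. In all, 147 of the 441 calls held in each of the 6 fits that left out a library of this comparison. On a TPM scale, with limma on log2(TPM + 1), the median of all genes moved to -0.13. Of the 522 genes called there 16.1% were higher, against 59.2% in the count test. Other scalings of the counts gave 57.9% higher with RLE factors and 59.5% with upper-quartile factors. The balance of rises and falls thus differed between the count test and the TPM values. A call lost when a library was left out is marked where the gene is named. Of the genes described below, Ccl5, Cenpf, Cep85, Cflar, Fcgr2b, Igf1, Il18rap, Kcnj2, Kif11, Lilrb4a, Mertk, Mki67, Ptgs2, Rbl1, Zfp36, mt-Co3, mt-Nd1, mt-Nd2 and mt-Nd5 lost their calls in every TPM setting tried.

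The direction a gene took after 12 h mostly ran against the direction it had taken before. Of the 180 genes that fell, 111 had been higher at 12 h than at control, 68 had not been called at 12 h, and 1 had been lower. Of the 261 that rose, 181 had been lower at 12 h than at control, 78 had not been called, and 2 had been higher. Those 111 are 10.4% of the 1070 genes higher at 12 h than at control, and the 181 are 20.4% of the 888 genes lower at 12 h. The remaining 957 of the 1070 and 706 of the 888 were not called between 12 h and 24 h. The comparisons with control share the 12 h libraries with the one described here, which pushes the directions apart, so these counts are given as a description with no test of overlap.

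**Figure D1:**
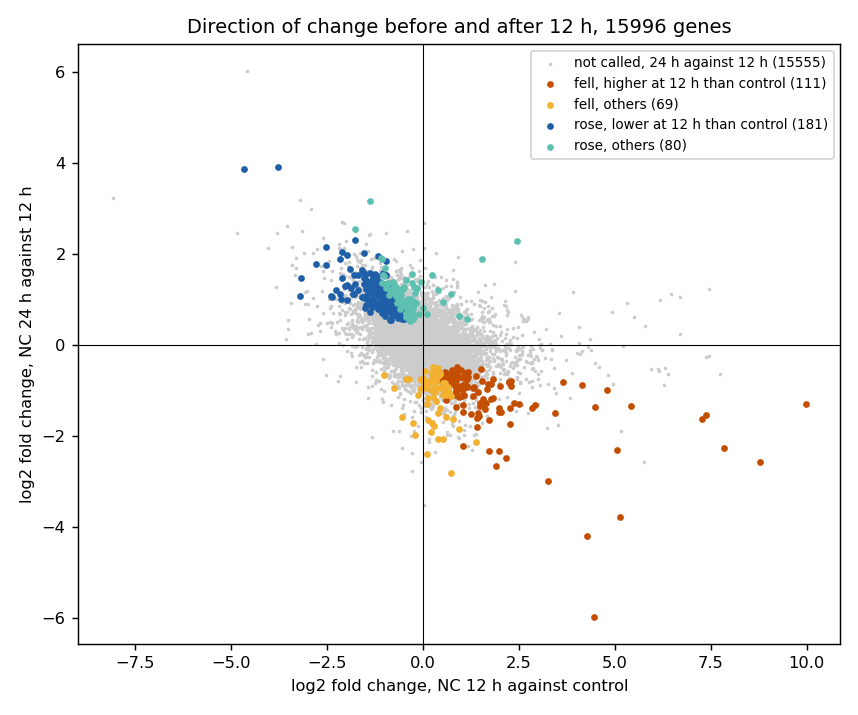
Each of the 15996 genes tested is a point, with the log2 fold change of NC 12 h against control on the horizontal axis and of NC 24 h against 12 h on the vertical axis. Coloured points are the 441 genes called between 12 h and 24 h, split by their call at 12 h. The 111 genes that fell after a rise lie at the lower right and the 181 that rose after a fall at the upper left. Both axes use the 12 h libraries, which by itself tilts the cloud downward.

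Most called genes had moved the other way by 12 h and were not called against control at 24 h. Of the 111 genes that fell after a rise, 78 were not called against control at 24 h, 31 were still higher than control, and 2, Hp and Oas3, were below it. Their median changes in the NC line were 1.32 at 12 h against control, -0.99 at 24 h against 12 h and 0.23 at 24 h against control (log2). Of the 181 genes that rose after a fall, 165 were not called against control at 24 h, 14 were still lower, and 2, Brip1 and Fbxo48, were above it. Their medians were -1.09 at 12 h against control, 1.05 at 24 h against 12 h and 0.00 at 24 h against control. A miss of the threshold against control does not show that a gene was back at its control level. These classes moved with the processing too, with 603 genes falling after a rise and 541 rising after a fall under the library-number block. Genes falling after a rise numbered 64, 59 and 60 with 12 h library 1, 12 h library 3 or 24 h library 2 left out, and genes rising after a fall numbered 83, 84 and 118. With 24 h library 3 left out the class that rose held 108.

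Sets of genes with a shared role were described by how many of their tested members passed the threshold, beside the background of 1.63% of all genes higher and 1.13% lower. The lists and their members were chosen with earlier results of these data known, so these shares are descriptions and no test. Of 41 such lists, 16 had no member past the threshold. Counts of members under the library-number block have a wider background, 862 of 15996 genes higher and 979 lower. Counts against control have theirs too, 1070 genes higher and 888 lower at 12 h, and 745 and 466 at 24 h. The members that fell stood mostly among interferon, interleukin and endoplasmic reticulum genes, and those that rose among division, replication, histone and mitochondrially encoded genes.

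**Figure D2:**
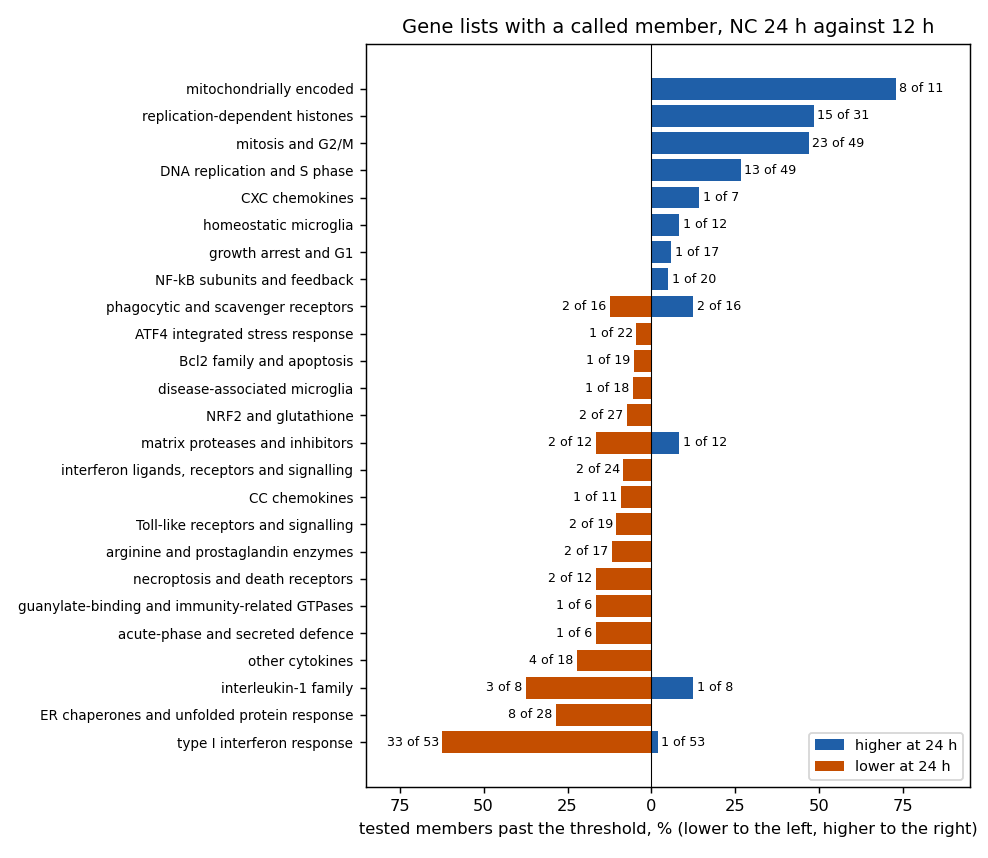
Bars give the share of each list's tested members called higher (to the right) or lower (to the left) at 24 h than at 12 h in the NC line, in percent, with the counts beside them, for the 25 lists with a called member. The type I interferon list has 33 of 53 members lower, and the mitochondrially encoded list has 8 of 11 higher.

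Interferon response genes made up the largest group of falling genes among these lists. Of the 53 tested members of the type I interferon list 33 fell and 1 rose, with a list median of -1.22, against a median of 0.00 over all genes tested. With the library-number block 44 fell, and between 26 and 31 fell when a library of the comparison was left out. The Ifit genes encode antiviral proteins that bind foreign RNA, the Oas genes make the messenger that activates RNase L, and Isg15 is a ubiquitin-like tag. On limma's log2(TPM + 1) scale 31 of the list fell, and its median kept its sign under every scaling tried.

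Gbp2, a guanylate-binding GTPase that attacks pathogen vacuoles, had the largest fall among the named genes. The gene lies on chromosome 3 from 142620602 to 142638008 on the plus strand (GRCm38). It had 0.507, 2.07 and 1.84 CPM at 24 h, against 96.1, 79.6 and 121 CPM at 12 h. Every 24 h library lay far below every 12 h library, and the change was -5.98 ± 0.46 (edgeR adjusted p = 2.2e-07). In control libraries it had stood at 6.89, 2.14 and 4.70 CPM, and 24 h was not called against control (-1.52, edgeR adjusted p = 0.098). None of the other 5 tested guanylate-binding and immunity-related GTPases passed. Of those, Gbp7 changed by -1.10 ± 0.34 (edgeR adjusted p = 0.098, and 6.6e-05 with the library-number block).

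Isg15 lies on chromosome 4 from 156199424 to 156200818 on the minus strand (GRCm38). Its level was 39.3, 40.1 and 30.6 CPM at 24 h, against 236, 183 and 197 CPM at 12 h. The groups did not overlap, and Isg15 fell by 2.49 ± 0.19 on the log2 scale (edgeR adjusted p = 6.8e-08). Ifit3 fell to 10.9, 7.72 and 10.5 CPM at 24 h, against 57.4, 37.4 and 52.9 CPM at 12 h, a change of -2.34 ± 0.22. Both had risen by 12 h and were not called against control at 24 h, at -0.32 for Isg15 and -0.62 for Ifit3.

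The promoters of these 2 genes are shown because most promoters of the list hold the sequence that interferon-activated factors are known to bind. They are RefSeq windows of 250 bases before and 50 bases after the annotated start (GRCm38.p6), read in the direction of transcription. Capitals mark matches to the core of the interferon-stimulated response element, TTTCNNTTT or its reverse complement. Only called members whose window holds this core could be shown, so the presence of a match follows from the choice. Isg15 is at chr4:156200769-156201068 on the minus strand, where 3 matches overlap in 1 run, and Ifit3 at chr19:34583279-34583578 on the plus strand with 2 matches.
Isg15: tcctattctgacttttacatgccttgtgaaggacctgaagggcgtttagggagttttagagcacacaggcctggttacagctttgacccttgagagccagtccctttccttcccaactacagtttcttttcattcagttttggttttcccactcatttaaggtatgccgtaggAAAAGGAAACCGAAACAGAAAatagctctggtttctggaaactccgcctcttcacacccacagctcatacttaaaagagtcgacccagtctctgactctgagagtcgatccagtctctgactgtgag
Ifit3: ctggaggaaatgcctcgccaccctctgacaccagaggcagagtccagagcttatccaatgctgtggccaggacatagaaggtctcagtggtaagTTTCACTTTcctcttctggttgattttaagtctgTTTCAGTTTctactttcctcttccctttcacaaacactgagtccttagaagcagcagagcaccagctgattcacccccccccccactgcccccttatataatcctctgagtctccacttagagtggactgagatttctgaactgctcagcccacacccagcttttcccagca
Windows were found for 43 of the 53 tested members, and 28 of them (65.1%) hold the core on either strand. Among the 9400 windows of tested genes 753 (8.01%) hold it, and among all 27025 RefSeq windows 2891 (10.7%). A match is a sequence and does not show binding. Only 58.8% of all tested genes have a window, too few to compare called genes with uncalled ones.

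The falling interferon genes are divided here by their call at 12 h against control, a cutoff that does not show separate courses. Of the 33, 16 had been higher at 12 h than at control, among them Isg15, Ifit3, Ifit1 and Phf11b, and 15 of these were not called against control at 24 h. The other 17 had not been called at 12 h, and 14 of those were below control at 24 h. Oasl2, for example, had 20.5, 23.6 and 23.3 CPM at control, 30.6, 28.0 and 30.3 CPM at 12 h and 6.08, 6.03 and 8.84 CPM at 24 h. Its 12 h libraries all lay above its control libraries, although the difference was not called. All its 24 h libraries lay below all control libraries. The change of Oasl2 was -2.07 ± 0.21 against 12 h (edgeR adjusted p = 4.1e-06) and -1.67 against control (1.3e-05). Cmpk2, a nucleotide kinase beside the antiviral gene Rsad2, had 60.1, 45.0 and 52.5 CPM at control, 52.9, 32.2 and 52.3 CPM at 12 h and 14.2, 8.47 and 12.0 CPM at 24 h. It changed by -1.99 ± 0.27 against 12 h and by -2.19 against control. Usp18, which removes Isg15 from proteins and restrains the interferon receptor, and Xaf1, a partner of apoptosis inhibitors, had the same calls. Usp18 stood at 71.7, 69.1 and 63.2 CPM at 24 h against 170, 142 and 192 CPM at 12 h, and Xaf1 at 7.85, 6.97 and 10.1 CPM at 24 h against 30.4, 26.2 and 26.8 CPM at 12 h. Oas3 had been higher at 12 h (0.61 against control) and fell below control by 24 h (-0.61 against control, edgeR adjusted p = 0.035), with 264, 198 and 203 CPM at 24 h against 576, 440 and 533 CPM at 12 h.

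**Figure D3:**
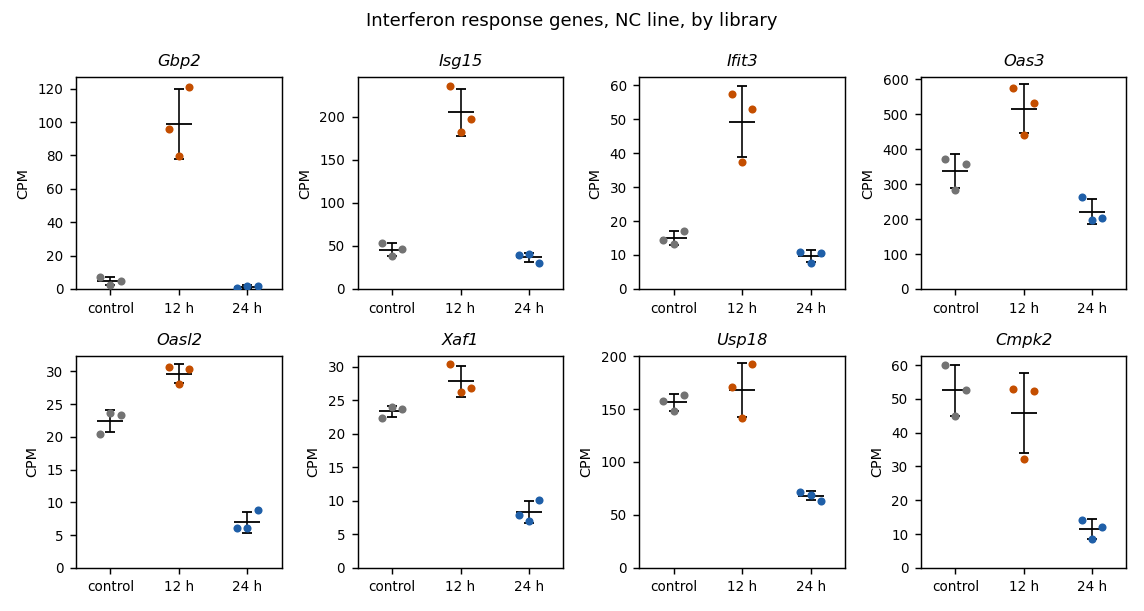
Points are the 3 NC libraries per time, in CPM on a linear axis from 0, with the mean and SD in black, for 8 interferon response genes. In each gene the 3 libraries at 24 h lie below the 3 at 12 h. Gbp2, Isg15 and Ifit3 are higher at 12 h and not called against control at 24 h, and Oasl2, Xaf1, Usp18 and Cmpk2 end below control.

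Among the ligands, receptors and signalling genes of the pathway, 2 of 24 fell, both transcription factors. Irf7, which amplifies interferon production, had 31.7, 25.04 and 25.8 CPM at 24 h against 95.2, 54.1 and 105 CPM at 12 h (-1.63 ± 0.30, edgeR adjusted p = 0.0036). Irf9, part of the factor that binds interferon response elements, changed by -0.98 ± 0.20 (edgeR adjusted p = 0.0088), a call lost without NC 12 h library 1 or NC 24 h library 2 (up to 0.061). Irf1 (-0.96 ± 0.31, edgeR adjusted p = 0.10) and the receptor subunit Ifnar1 (-0.61 ± 0.17, 0.061) did not pass, and with the library-number block they had adjusted p of 0.034 and 0.0004, with 11 of the 24 genes lower in all. No MHC class I or immunoproteasome gene of 18 tested passed, and 5 were lower with the block.

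Ifnlr1, the specific chain of the receptor for type III interferons, had the largest rise among the named genes. It lies on chromosome 4 from 135686287 to 135708181 on the plus strand (GRCm38). Its level was 8.10, 6.59 and 6.08 CPM at 24 h, against 1.58, 1.08 and 2.38 CPM at 12 h. The groups did not overlap, and Ifnlr1 rose by 2.03 ± 0.33 (edgeR adjusted p = 0.00088). At control it had stood at 7.93, 5.61 and 8.17 CPM, so the rise followed a fall by 12 h.

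Of the interleukin-1 family 3 of 8 tested members fell and 1 rose, of other cytokines 4 of 18 fell, and of CC chemokines and their receptors 1 of 11. Higher at 12 h than at control had been 4 of these 8, 10 of the 18 and 10 of the 11. Another 4 of the 18 had been lower. Of all 15996 genes tested, 1070 were higher at 12 h than at control and 888 lower. All 3 falling interleukin-1 genes were still above control at 24 h. The list medians were 0.02 for the interleukin-1 family, a sign that turned on the TPM scale, -0.18 for other cytokines and -0.31 for CC chemokines.

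Il1b, the pyrogenic cytokine that inflammasomes process, lies on chromosome 2 from 129364570 to 129371139 on the minus strand (GRCm38). It had 1.67, 0.660 and 1.43 CPM at control, 313, 232 and 309 CPM at 12 h and 60.8, 61.0 and 55.8 CPM at 24 h. The 3 times did not overlap, and the change after 12 h was -2.27 ± 0.25 (edgeR adjusted p = 1.6e-05). Il1a fell to 133, 161 and 220 CPM at 24 h, against 465, 496 and 548 CPM at 12 h (-1.55 ± 0.23). Their antagonist Il1rn had 38.5, 59.5 and 65.7 CPM at 24 h against 120, 105 and 106 CPM at 12 h (-1.01 ± 0.22, edgeR adjusted p = 0.012), a call lost without NC 12 h library 1 or NC 24 h library 1 (up to 0.066). Il18rap, an accessory chain of the interleukin-18 receptor, rose instead, with 45.8, 63.3 and 72.0 CPM at 24 h against 29.7, 35.7 and 31.5 CPM at 12 h (0.90 ± 0.17, edgeR adjusted p = 0.0028), a call lost on the TPM scale.

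Il6, an inducer of acute-phase proteins, fell to 12.2, 16.8 and 19.3 CPM at 24 h, against 39.8, 37.7 and 46.8 CPM at 12 h (-1.36 ± 0.26, edgeR adjusted p = 0.0033). Ccl5, a chemokine for T cells and monocytes, fell to 15.4, 22.2 and 13.4 CPM at 24 h, against 41.9, 53.9 and 48.6 CPM at 12 h (-1.49 ± 0.27, 0.0026), a call lost on the TPM scale. Neither overlapped between the groups. Csf3, the granulocyte growth factor, had 1427, 763 and 845 CPM at 24 h against 3083, 1687 and 2719 CPM at 12 h (-1.30 ± 0.28, edgeR adjusted p = 0.013), and its call was lost without NC 12 h library 1 or 3 or NC 24 h library 2 or 3 (up to 0.074). The calls of Il27 (-1.39 ± 0.37, edgeR adjusted p = 0.043) and of the growth factor Igf1 (-0.94 ± 0.26, 0.049) were also lost, in 6 and 5 of the 6 fits, up to 0.19 and 0.22. Igf1 stood at -0.76 against control at 12 h, just short of the threshold, and at -1.70 at 24 h.

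Other inflammatory genes did not pass the threshold between 12 h and 24 h. The monocyte chemokine Ccl2 had 119, 85.7 and 111 CPM at 24 h and 143, 89.3 and 157 CPM at 12 h, groups that overlapped (-0.31 ± 0.27, edgeR adjusted p = 0.72). Ccl7 had 2641, 2307 and 2769 CPM at 24 h and 3712, 3082 and 4238 CPM at 12 h (-0.52 ± 0.18, 0.15), with an adjusted p of 0.0037 under the library-number block. Tnf stood at 16.5, 21.1 and 21.2 CPM at 24 h and at 18.5, 9.70 and 13.3 CPM at 12 h (0.51 ± 0.31, 0.52). Lcn2, which sequesters bacterial siderophores, stood at 141, 78.0 and 110 CPM at 24 h and at 140, 79.8 and 177 CPM at 12 h (-0.27 ± 0.38, 0.86). The NF-kB inhibitor Nfkbia changed by -0.22 ± 0.20 (0.73). All 5 remained above control at 24 h, by 2.89 for Ccl2, 5.79 for Ccl7, 3.14 for Tnf, 7.12 for Lcn2 and 2.51 for Nfkbia (log2, each past the threshold against control). A p that misses the threshold does not show that these genes held still.

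**Figure D4:**
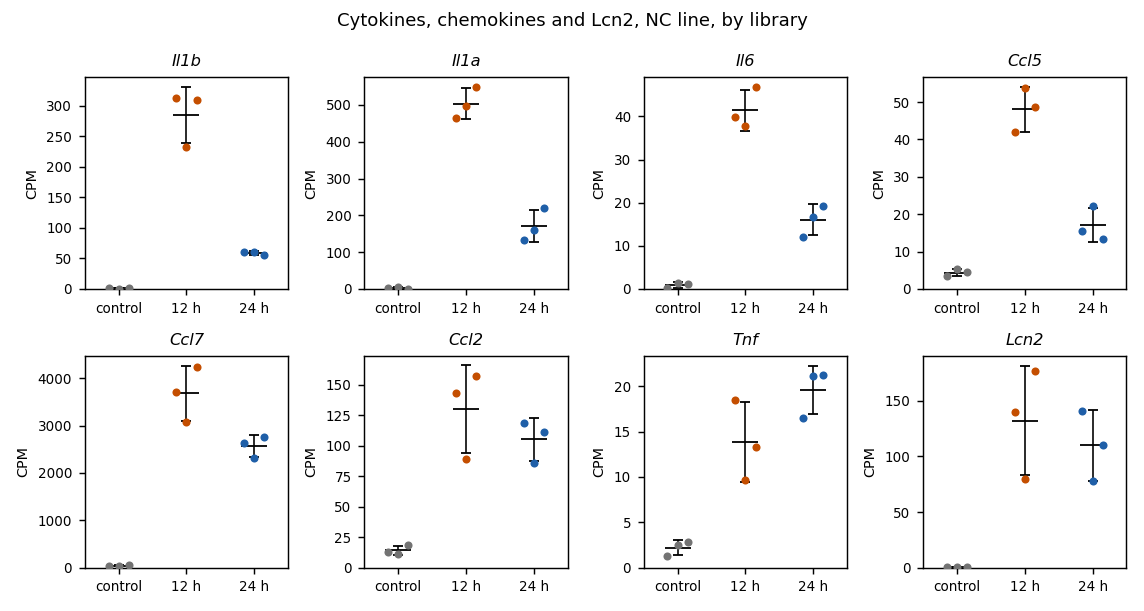
Points are the 3 NC libraries per time, in CPM on a linear axis from 0, with the mean and SD in black. Il1b, Il1a, Il6 and Ccl5 are lower in every 24 h library than in any 12 h library, while the Ccl2, Tnf and Lcn2 libraries of the 2 times overlap.

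Few regulators of NF-kB and of the MAPK pathway passed. Of 20 NF-kB subunits and feedback genes 1 rose, Zfp36, which destabilizes cytokine mRNAs (1.42 ± 0.38, edgeR adjusted p = 0.046), a call lost in 5 of the 6 fits that left out a library (up to 0.21). With the library-number block 7 of the 20 were lower, where 979 of all 15996 genes were. None of 23 AP-1, Egr and MAPK feedback genes passed, but with the library-number block 4 were lower and 1 was higher. Among the lower ones were the phosphatase gene Dusp5 (-0.64 ± 0.22, edgeR adjusted p = 0.14, and 1.2e-06 with the block) and Ier3, an immediate early gene (-0.65 ± 0.22, 0.14, and 9.4e-07 with the block). Of the Toll-like receptor group 2 of 19 fell. Cd14, the lipopolysaccharide co-receptor, had 640, 641 and 629 CPM at 24 h against 1195, 1091 and 1297 CPM at 12 h (-0.91 ± 0.14, edgeR adjusted p = 0.00068). Tlr2 changed by -0.73 ± 0.17 (0.019), lost without NC 12 h library 1 or 3 or NC 24 h library 1 or 2 (up to 0.12).

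Of 12 tested matrix proteases and their inhibitors 2 fell and 1 rose, with a median of -0.01, and of 17 arginine and prostaglandin enzymes 2 fell. Plau, the urokinase that activates plasminogen, was the riser, with 294, 287 and 296 CPM at 24 h against 174, 156 and 192 CPM at 12 h (0.75 ± 0.15, edgeR adjusted p = 0.0043). Mmp13, a collagenase on chromosome 9 from 7272514 to 7283331 on the plus strand (GRCm38), had 6.59, 8.47 and 8.84 CPM at 24 h against 98.2, 113 and 122 CPM at 12 h. The groups lay far apart (-3.78 ± 0.23, edgeR adjusted p = 7.6e-10), and at 24 h it was still 1.35 above control. Hdc, which makes histamine, had 4.31, 3.39 and 4.42 CPM at 24 h against 40.5, 24.6 and 31.5 CPM at 12 h (-2.99 ± 0.37). Edn1, the precursor of the vasoconstrictor endothelin, changed by -2.33 ± 0.40 and the serpin Serpina3g by -2.58 ± 0.45. Ptgs2, the inducible cyclooxygenase, fell to 399, 433 and 536 CPM at 24 h, against 722, 803 and 907 CPM at 12 h (-0.83 ± 0.16). Acod1, which makes itaconate, fell to 3385, 3214 and 4214 CPM at 24 h, against 7403, 5440 and 7159 CPM at 12 h (-0.89 ± 0.18).

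Hp, haptoglobin, is the plasma protein that binds free hemoglobin. It had 10.2, 10.6 and 10.2 CPM at control, 19.6, 18.7 and 25.6 CPM at 12 h and 3.29, 4.52 and 5.52 CPM at 24 h. Its rise by 12 h (1.04) turned into a level below control (-1.20, edgeR adjusted p = 0.014), with a change of -2.24 ± 0.29 between the times (9.8e-05). None of 21 tested heme and iron genes passed, with a list median of -0.02. Hmox1, heme oxygenase, had 1851, 1492 and 2649 CPM at 24 h and 2552, 1659 and 2258 CPM at 12 h (-0.11 ± 0.26, edgeR adjusted p = 0.93), and was 2.15 above control at 24 h.

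Of 27 NRF2 and glutathione genes 2 fell. Srxn1, which repairs peroxiredoxins, changed by -0.90 ± 0.20 (edgeR adjusted p = 0.016) and Sod2, the mitochondrial superoxide dismutase, by -0.80 ± 0.17 (0.0089). The Srxn1 call was lost without NC 12 h library 1 or 3 or NC 24 h library 2 (up to 0.083) and the Sod2 call without NC 24 h library 2 (0.063). The cystine transporter Slc7a11 had 1216, 1663 and 1708 CPM at 24 h and 1406, 1958 and 1951 CPM at 12 h, groups that overlapped (-0.21 ± 0.21, edgeR adjusted p = 0.77). Of the arginine enzymes, Nos2, which makes nitric oxide, was at 0.85 ± 0.26 (0.085, and 0.049 with the library-number block) and Arg1 at 0.35 ± 0.36 (0.78). Against control, Nos2 was at 3.01 and Arg1 at -3.15 at 24 h (log2).

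Chaperones of the endoplasmic reticulum came down after 12 h. Of 28 tested genes of this group and the unfolded protein response 8 fell and none rose, and 27 of the 28 estimates were negative, with a median of -0.60. With the library-number block 18 fell and 1 rose. Leaving out 12 h library 1, 12 h library 3 or 24 h library 2 brought the count to 3, 4 or 3. Of the 8, 7 had been higher at 12 h than at control, and 5 of those were not called against control at 24 h. Of all 180 genes that fell, 111 had been higher at 12 h. Creld2 had 74.5, 57.2 and 61.7 CPM at 24 h against 195, 143 and 170 CPM at 12 h (-1.40 ± 0.25, edgeR adjusted p = 0.0027). Manf, a secreted stress factor, had 15.7, 17.7 and 21.0 CPM at 24 h against 49.98, 32.9 and 62.8 CPM at 12 h (-1.41 ± 0.23, 0.001). Dnajc3, a co-chaperone, had 85.6, 101 and 94.5 CPM at 24 h against 171, 175 and 181 CPM at 12 h (-0.91 ± 0.13, 0.00027). None of these 3 overlapped between the groups. The transcription factor Xbp1 changed by -0.84 ± 0.19 (0.016), a call lost without NC 12 h library 1 or 3 or NC 24 h library 1 or 2 (up to 0.094). The master chaperone Hspa5 did not pass (-0.82 ± 0.26, 0.11, and 0.0074 with the library-number block). Among 22 genes of the ATF4 stress response 1 fell, Ddit3 (-0.84 ± 0.19, edgeR adjusted p = 0.014), lost without NC 12 h library 1 or 2 or NC 24 h library 3 (up to 0.078).

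Division genes rose. Of 49 tested mitosis and G2/M genes 23 rose and none fell, and 48 of the 49 estimates were positive, with a median of 0.90. With the library-number block 38 rose, and between 16 and 20 when a library of the comparison was left out. The same list had 34 members lower at 12 h than at control, where 888 of all 15996 genes were. Its median at 24 h against control was 0.00. On limma's log2(TPM + 1) scale 6 rose, with a median of 0.58, or 0.71 above the median of all genes on that scale, and the calls of Kif11, Mki67 and Cenpf were lost.

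Top2a, the topoisomerase that untangles chromosomes before they part, lies on chromosome 11 from 98992943 to 99024189 on the minus strand (GRCm38). It had 309, 344 and 301 CPM at control, 129, 149 and 160 CPM at 12 h and 272, 330 and 368 CPM at 24 h. The 24 h libraries all lay above the 12 h ones and spanned the control range (1.15 ± 0.15, edgeR adjusted p = 9.8e-05). The spindle motor Kif11 had 195, 200 and 236 CPM at 24 h against 88.5, 105 and 97.1 CPM at 12 h (1.12 ± 0.15, 0.00012). Mki67, the proliferation marker, had 934, 1075 and 586 CPM at 24 h against 317, 414 and 223 CPM at 12 h (1.44 ± 0.25, 0.0015). The third library was the lowest at both times, and the groups did not overlap. The kinetochore genes Cenpf and Cenpa rose by 1.46 ± 0.25 and 1.04 ± 0.16, and Cenpa was still below control at 24 h (-0.54, edgeR adjusted p = 0.038).

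The promoters of Top2a and Kif11 are shown because the motifs that bind cell cycle complexes are frequent in this list. The windows are cut as above, from chr11:99024140-99024439 on the minus strand and chr19:37376132-37376431 on the plus strand (RefSeq, GRCm38.p6). Capitals mark the cell cycle genes homology region, TTTGAA, and the CCAAT box, CCAAT, each on either strand. Only called members whose window holds TTTGAA could be shown, so its presence in both follows from the choice.
Top2a: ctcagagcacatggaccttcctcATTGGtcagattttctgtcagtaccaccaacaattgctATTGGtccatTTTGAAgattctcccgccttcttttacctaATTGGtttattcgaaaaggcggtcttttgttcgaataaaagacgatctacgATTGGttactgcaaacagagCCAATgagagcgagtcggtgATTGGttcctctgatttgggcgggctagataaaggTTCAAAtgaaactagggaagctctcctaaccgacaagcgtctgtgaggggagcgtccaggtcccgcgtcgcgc
Kif11: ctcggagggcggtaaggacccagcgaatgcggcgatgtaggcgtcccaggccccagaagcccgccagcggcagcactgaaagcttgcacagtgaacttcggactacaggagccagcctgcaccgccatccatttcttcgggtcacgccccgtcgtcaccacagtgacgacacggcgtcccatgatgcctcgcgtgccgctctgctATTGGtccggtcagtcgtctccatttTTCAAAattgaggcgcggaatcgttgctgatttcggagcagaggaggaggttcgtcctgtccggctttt
Of the 49 tested mitosis genes 41 had a window, and 28 of the 41 (68.3%) hold TTTGAA, against 12.7% of the windows of tested genes and 18.1% of all windows. CCAAT stands in 28 of the 41 too, against 38.9% for tested genes and 37.9% for all windows. The E2F site TTCCCGC stands in 18 of the 41 windows of DNA replication genes (43.9%) and in 1 of the 41 of mitosis genes, against 8.44% of the windows of tested genes and 4.66% of all windows. Both motif types are short, and these counts are descriptions of sequence only.

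DNA replication and S-phase genes rose in 13 of 49 tested, with none lower and a median of 0.44. The count was 22, with 1 lower, under the library-number block. Leaving out 12 h library 1 brought it to 7 and leaving out 24 h library 3 to 6, and limma called 5 on log2(TPM + 1), or 2 without a filter. Pole, the leading-strand polymerase, had 81.3, 62.1 and 76.4 CPM at 24 h against 38.7, 31.3 and 38.8 CPM at 12 h (1.01 ± 0.17, edgeR adjusted p = 0.0013). Bard1, the partner of the repair protein Brca1, rose by 1.13 ± 0.14 (8.1e-05). Brip1, a helicase that works with them, passed its control level, with 79.7, 83.6 and 74.5 CPM at control, 49.8, 46.5 and 54.3 CPM at 12 h and 92.4, 114 and 129 CPM at 24 h. It changed by 1.16 ± 0.16 after 12 h and stood 0.50 above control at 24 h (edgeR adjusted p = 0.047). Rbl1, a retinoblastoma relative that restrains E2F, was the 1 riser among 17 growth arrest and G1 genes (1.03 ± 0.20, 0.0055), a call lost on the TPM scale.

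Replication-dependent histone genes, which cells transcribe during S phase, rose in 15 of 31 tested, with none lower and a median of 0.87. All 15 had been lower at 12 h than at control, and none of them was called against control at 24 h. Of all 261 genes that rose, 181 had been lower at 12 h. With the library-number block 27 rose. Leaving out 24 h library 3 brought the count to 5, 12 h library 2 or 3 to 7, and 12 h library 1 to 9. H3c2, an H3 gene on chromosome 13 from 23752267 to 23752886 on the plus strand (GRCm38), had 126, 144 and 292 CPM at 24 h against 65.5, 43.3 and 72.3 CPM at 12 h (1.64 ± 0.26, edgeR adjusted p = 0.00068). Library 3 was the highest at 24 h by a wide margin. H1f4, a linker histone, had 668, 542 and 495 CPM at 24 h against 337, 270 and 297 CPM at 12 h (0.91 ± 0.16, 0.0016). Copies of a histone gene share much of their sequence, and reads may have been divided among them, so single histone genes are uncertain.

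Mitochondrially encoded genes rose in 8 of 11 tested, with none lower and a median of 1.50. Leaving out 12 h library 1 brought the count to 3, 12 h library 3 to 4, and 24 h library 2 or 3 to 3. mt-Nd5, a complex I subunit, had 1584, 1672 and 1561 CPM at 24 h against 509, 676 and 454 CPM at 12 h (1.55 ± 0.24, edgeR adjusted p = 0.00052), groups far apart. mt-Nd1 had 163, 471 and 591 CPM at 24 h against 86.0, 125 and 105 CPM at 12 h (1.95 ± 0.35, 0.0033), and its first 24 h library lay much nearer to the 12 h ones than the other two did. The calls of mt-Nd2 and mt-Co3 were lost in 4 of the 6 fits each, up to 0.10 and 0.073. Of the whole library, these genes took 0.833, 1.87 and 2.05% of the counts at 24 h and 0.605, 0.970 and 0.695% at 12 h. Nuclear copies of mitochondrial sequence may share these reads. On limma's log2(TPM + 1) scale 1 of the 11 passed, with a median of 1.24. None of the 27 nuclear-encoded respiratory chain genes passed, and their median was -0.06.

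**Figure D5:**
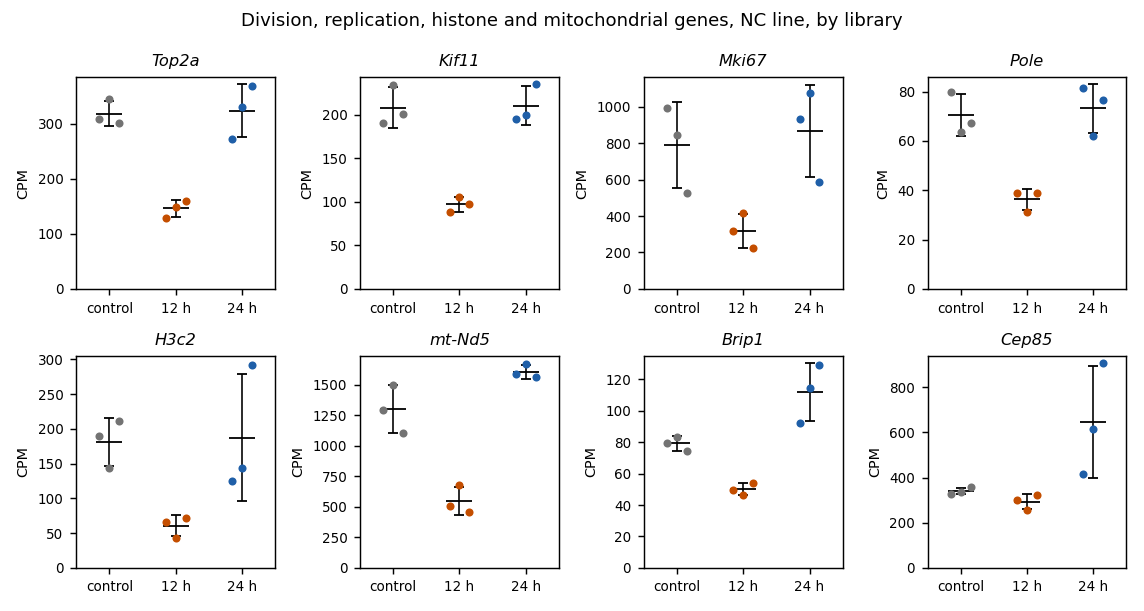
Points are the 3 NC libraries per time, in CPM on a linear axis from 0, with the mean and SD in black. Top2a, Kif11, Mki67, Pole and H3c2 fall by 12 h and rise again by 24 h, mt-Nd5 does so as well, and Brip1 ends above control. Cep85 rises late, in every 24 h library above every control and 12 h library.

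Some genes were called only after 12 h, which does not show that they held still before it. Not called at 12 h and higher at 24 h than at both earlier times were 18 genes, and not called at 12 h and lower at 24 h than at both were 32. The 18 became 137 with the library-number block, and 7 or 9 when 12 h library 1 or 3, or 24 h library 3, was left out. Cep85, a centrosomal protein, had 329, 336 and 356 CPM at control, 301, 257 and 323 CPM at 12 h and 416, 615 and 906 CPM at 24 h (1.14 ± 0.19 after 12 h, edgeR adjusted p = 0.0012). The 24 h libraries differed more among themselves than the others did. Rmi2, a subunit of the helicase complex that dissolves DNA crossovers, rose by 1.36 ± 0.23, Lyrm9, a mitochondrial protein family member, by 1.00 ± 0.18, and Tspoap1, which binds the mitochondrial translocator protein, by 1.20 ± 0.24. The Tspoap1 call was lost without NC 12 h library 3 (0.054). Among the 32 late fallers, 14 were the interferon genes described above.

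Few genes were called in the same direction both by 12 h and after it. Higher at 12 h and higher again at 24 h were 2 genes, Fcgr2b, the inhibitory receptor for immunoglobulin G, and Lilrb4a, another inhibitory receptor of myeloid cells. Fcgr2b had 60.5, 61.8 and 61.9 CPM at control, 135, 115 and 102 CPM at 12 h and 159, 192 and 194 CPM at 24 h (0.63 ± 0.15, edgeR adjusted p = 0.028). Lilrb4a had 75.1, 80.2 and 82.1 CPM at control, 169, 177 and 184 CPM at 12 h and 212, 246 and 329 CPM at 24 h (0.57 ± 0.15, 0.045). For both genes the 3 times did not overlap, but the calls were lost in 4 and 5 of the 6 fits, up to 0.17 and 0.23, and the block called 37 such genes. Arrb1, which uncouples receptors from G proteins, was the 1 gene lower at 12 h and lower again, with 69.3, 58.7 and 65.8 CPM at control, 34.7, 30.4 and 31.7 CPM at 12 h and 21.8, 18.1 and 21.4 CPM at 24 h (-0.66 ± 0.18, 0.044), a call lost in each of the 6 fits (up to 0.18). Of 16 tested phagocytic and scavenger receptors 2 rose, Fcgr2b and Mertk, and 2 fell, both activating receptors for immunoglobulin G. Fcgr4 changed by -0.77 ± 0.20 (edgeR adjusted p = 0.043), a call lost in 4 of the 6 fits (up to 0.21). Fcgr1 was lower, with 103, 106 and 134 CPM at 24 h against 241, 176 and 236 CPM at 12 h (-0.93 ± 0.17, 0.0025).

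Some genes recovered only in part. Deptor, an inhibitor of the mTOR kinase on chromosome 15 from 55112317 to 55259271 on the plus strand (GRCm38), had 100, 117 and 130 CPM at control, 22.96, 17.8 and 20.02 CPM at 12 h and 52.4, 76.1 and 75.3 CPM at 24 h. It rose by 1.75 ± 0.18 after 12 h (edgeR adjusted p = 4.1e-06) and remained below control (-0.76, 0.0048), with no overlap between any of the times. Abcd2, a peroxisomal fatty acid transporter, had 101, 120 and 108 CPM at control, 12.6, 11.9 and 11.7 CPM at 12 h and 28.6, 33.7 and 37.6 CPM at 24 h (1.47 ± 0.19, 8.4e-05, and -1.72 against control). Mertk, a receptor for dying cells and a microglial marker, changed by 1.11 ± 0.24 (0.013), lost without NC 12 h library 2 or 3 or NC 24 h library 2 (up to 0.083), and stood at -1.05 against control. It was the only homeostatic microglia gene of 12 tested to pass. Klf11, a transcription factor of the Krüppel-like family, rose by 1.66 ± 0.23 to 20.8, 18.6 and 25.8 CPM at 24 h, against 9.005, 5.39 and 6.34 CPM at 12 h.

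Few cell death genes passed. Of 19 Bcl2 family and apoptosis genes 1 fell, the pro-survival Bcl2a1d, with 64.3, 76.6 and 93.4 CPM at 24 h against 172, 172 and 238 CPM at 12 h (-1.31 ± 0.19, edgeR adjusted p = 0.00028). Its near-identical gene copies may share reads. Of 12 necroptosis and death receptor genes 2 fell. Tnfrsf1b, a receptor for TNF, had 1114, 960 and 1177 CPM at 24 h against 2870, 2153 and 2849 CPM at 12 h (-1.28 ± 0.18, 0.00015). Cflar, which blocks caspase-8, changed by -0.50 ± 0.13 (0.033), lost without NC 12 h library 1 or 3 or NC 24 h library 1 or 2 (up to 0.13). None of 12 inflammasome and pyroptosis genes passed.

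The KD-labelled line supplies 6 other libraries for the same 2 times. In it 684 genes were called between 12 h and 24 h (4.28%), 450 higher (2.81%) and 234 lower (1.46%), and with the library-number block 1095 higher and 876 lower. Of the 261 genes that rose in the NC line 171 were also called higher in the KD-labelled line, which is 65.5% of the first list and 38% of the second. Of the 180 that fell 99 were also called lower, 55% and 42.3%. The estimates had the same sign in 256 of the 261 and 178 of the 180. The 111 NC genes that fell after a rise had a median of -0.99 in the NC line and -0.87 in the KD-labelled line, and the 181 that rose after a fall had medians of 1.05 and 1.17. In the KD-labelled libraries 26 of the 53 interferon genes fell, 11 of the 28 endoplasmic reticulum genes fell, and 40 of the 49 mitosis genes, 18 of the 49 replication genes, 28 of the 31 histone genes and 3 of the 11 mitochondrially encoded genes rose. The median of the mitochondrially encoded list was 1.50 in the NC line and 0.82 in the KD-labelled line. Differences between these counts were not tested as counts.

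The difference between the lines in the 24 h against 12 h change was tested gene by gene. It passed for 1 gene of 15996 (0.00625%). Kcnj2, an inward-rectifier potassium channel on chromosome 11 from 111066164 to 111076821 on the plus strand (GRCm38), had 111, 117 and 137 CPM at 24 h against 72.9, 81.9 and 90.4 CPM at 12 h in the NC line. In the KD-labelled line it had 81.6, 95.4 and 89.8 CPM at 24 h against 154, 152 and 166 CPM at 12 h. The change was 0.58 ± 0.14 in NC (edgeR adjusted p = 0.027, a call lost in 5 of the 6 fits, up to 0.15) and -0.82 ± 0.14 in KD (0.00073). That is a difference of 1.40 with a 95% interval of 0.99 to 1.81 (edgeR adjusted p = 0.0074). The call of the difference was lost without NC 12 h library 1 or KD 24 h library 1, when no gene passed, and 112 genes passed with the library-number block. For Cd14 the change was -0.91 in NC and -0.07 in KD, a difference of -0.83 (-1.26 to -0.41, edgeR adjusted p = 0.76). For Abcd2 it was 1.47 and 0.61, a difference of 0.86 (0.30 to 1.42), and for Ifnlr1 2.03 and 0.31, a difference of 1.72 (0.83 to 2.60, edgeR adjusted p = 0.76). These 3 genes were picked from those already named for their change in the NC line, and no rule on the line difference chose them. The NC change is itself a term of the difference, so picking on it favours differences away from 0. Intervals of these genes leave out 0 but are not adjusted for that choice, and the differences did not pass the adjustment over all genes.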

How the data were processed

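RNA of 18 libraries, 3 per line and time, had been sequenced. The submitters' processing notes name bcl2fastq, HISAT2 2.2.0, featureCounts, DESeq2 and the build GRCm38. The authors deposited raw read counts per gene, and TPM values (normalised for length and depth) whose way of calculation the sources used here leave out. Samples were grouped by their titles. The counts were tested with edgeR 4.0.16 (R 4.3.3): genes kept by filterByExpr at a minimum count of 10, TMM scaling, and 1 robust quasi-likelihood fit over all 18 libraries with a term per group, each contrast adjusted by the Benjamini-Hochberg method at 0.05. CPM are TMM-scaled. Alternatives used DESeq2 1.42.0, limma 3.58.1 on log2(TPM + 1) or log2(TPM + 0.1), other scalings and filters, fewer libraries and each library left out.

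Same-numbered libraries deviated together: their correlations were 0.234, 0.448 and 0.221 in the NC line between 24 h and 12 h, each over 0.1, and 0.262, 0.380 and 0.260 in the KD-labelled line. Libraries with different numbers had correlations of -0.304 to 0.0587 in the NC line and -0.219 to -0.0233 in the KD-labelled line. Deviations were taken from each group's own mean, so positive values for shared numbers push the others below 0. The values for different numbers are thus no separate comparison. What shared numbers mean is not labelled, and the block is an alternative. The main fit, on which the reported calls and misses rest, makes no use of the numbers. Named genes were the 12 largest called changes each way with a mean of at least 5 CPM in the higher group, no overlap between groups and a call in each fit leaving out 1 of the 6 libraries, up to 5 per gene list and per course of change, and panel genes named whatever their result. The members and gene lists were chosen with earlier results of these data known. Gene positions come from GENCODE M21 on GRCm38. The fit was tested on simulated counts drawn independently per library, with no effect shared by same-numbered libraries. Depth limits genes of few reads.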

Additional observations from a re-analysis of the deposited data

Results flagged for a closer look

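The difference between the lines in the change between 24 h and 12 h passed the threshold for 1 gene, Kcnj2, with a difference of 1.40 ± 0.20 (log2, edgeR adjusted p = 0.0074). It was higher at 24 h than at 12 h in the NC line and lower in the KD-labelled line, with no overlap between the times in either, although the call within the NC line was lost in 5 of 6 fits that left out a library. The count of 1 became 0 without NC 12 h library 1 or KD 24 h library 1.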

How the results depend on the processing

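Signs were compared for the named genes only. None of those called took the opposite sign under an alternative, but 8 estimates of named genes past the threshold in neither setting changed sign. So did medians near 0 of some lists under some settings, among them the interleukin-1 family, matrix proteases, heme and iron, and p53 targets. Among the counts, higher genes (261 as reported) came to 862 with the replicate block, 153 with the compared groups alone, 154 with the 9 NC libraries alone and 84, 84 and 72 with limma on log2(TPM + 1), log2(TPM + 0.1) and log2(TPM + 1) without a filter. Lower genes (180) came to 289 with DESeq2, 979 with the block, 110 and 109 with the compared groups and with the 9 NC libraries alone, and 438, 439 and 346 with the limma settings in that order. Genes differing between the lines (1) came to 112 with the block and 0, 0 and 8 with limma. Genes that fell after a rise (111) came to 168 with DESeq2, 603 with the block and 236, 221 and 192 with limma. Genes that rose after a fall (181) came to 541 with the block, 118 with the 9 NC libraries and 57, 65 and 38 with limma. Late risers (18) came to 30 with DESeq2, 137 with the block, 8 with the 9 NC libraries and 5 and 4 with limma on log2(TPM + 1) and log2(TPM + 0.1). Genes higher again (2) came to 8 with DESeq2, 37 with the block, 0 with the 9 NC libraries and 1, 1 and 0 with limma. The causes were not tested.

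With each of the 18 libraries left out, the ranges were 108 to 268 higher, 83 to 211 lower, 0 to 1 differing between the lines, 59 to 125 falling after a rise, 83 to 189 rising after a fall, 7 to 19 late risers and 0 to 3 higher again. With the TPM scaling the median of all genes lay at -0.13, -0.16 and -0.02, and 16.1%, 16.1% and 17.2% of called genes were higher, against 59.2% as reported and 46.8% with the block. Genes with few reads are imprecise: Psrc1 had 19 counts at 24 h and 1 at 12 h, a ratio of 19.5 with a counting interval of 3.10 to 809.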
